A study of Homo sapiens with 6 samples.

Results

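TSC22D3 encodes the glucocorticoid-induced leucine zipper, GILZ, and lies on the minus strand of the X chromosome. The stretch examined was hg19 chrX:106880000-107120000, which holds the gene at about 106956452 to 107019017. These gene limits were not checked against an hg19 annotation, and all distances from the gene start or end refer to them. It was chosen from the peak calls themselves, because 3 regions in it carried peaks in every dexamethasone library and in none of the vehicle libraries. The calls are therefore given as a description, without a test. The stretch held 92 of 357761 deposited peaks, which joined into 19 of 81216 regions when peaks sharing at least 1 bp were merged across libraries. DNase-seq maps accessible chromatin by sequencing the ends that the nuclease DNase I releases from nuclei. Nuclei came from A549 cells, an established human lung adenocarcinoma line, kept for 1 h with 100 nM dexamethasone (3 libraries) or for 1 h with 0.02% ethanol as vehicle (3 libraries). Whether the libraries of a treatment stand for separate cultures is not in the labels, and their spread may be technical.

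Dexamethasone is a synthetic glucocorticoid. It binds the glucocorticoid receptor, which moves to the nucleus and binds DNA at short inverted repeats, in part at sites that are already accessible and in part at sites that open with it. TSC22D3 is among the genes that glucocorticoids induce fastest in many cell types, and GILZ restrains NF-kB and AP-1, transcription factors of inflammatory genes. The gene has several starts, whose transcripts differ in their first exons and share the leucine zipper near the end of the protein. GILZ proper comes from a short transcript with an internal start.

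The RefSeq promoter table (GRCh38.p14) lists 4 starts of TSC22D3. From the outermost, the others lay 201, 58926 and 59480 bases further along the gene. Below are the 250 bases before the outermost start and before the first internal one, shown as examples of the gene's outer and internal promoters. Both are on the minus strand, written 5′ to 3′ in lower case, and capitals mark a match to one of the motifs searched.
Outermost start, GRCh38.p14 chrX:107775989-107776238: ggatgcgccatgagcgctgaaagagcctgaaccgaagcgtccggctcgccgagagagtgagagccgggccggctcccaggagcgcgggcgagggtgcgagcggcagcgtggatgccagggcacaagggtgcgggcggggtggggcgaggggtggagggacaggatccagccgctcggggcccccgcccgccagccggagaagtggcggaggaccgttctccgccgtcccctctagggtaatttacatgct
First internal start, GRCh38.p14 chrX:107717063-107717312: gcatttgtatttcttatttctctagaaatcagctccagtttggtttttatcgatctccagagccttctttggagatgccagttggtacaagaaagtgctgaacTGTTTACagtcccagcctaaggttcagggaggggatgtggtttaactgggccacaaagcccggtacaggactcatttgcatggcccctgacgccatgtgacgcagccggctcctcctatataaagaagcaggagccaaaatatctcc

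Of these 2 sequences the outermost promoter was rich in G and C (71.2%, with 27 CG pairs). The first internal one was not (48.0%, with 5 CG pairs), against medians of 58.0% and 11 CG pairs over 35116 promoters. The 2 promoters not shown were also above those medians. The second outer one had 66.4% with 15 CG pairs and the second internal one 68.4% with 19. Outer and internal promoters thus did not divide by G and C. The capitals in the first internal promoter spell TGTTTAC, the forkhead motif, with 140 bases between it and the start. Searched on both strands, as all motifs were, 2.98% of the 35116 promoter stretches of 250 bases held it. The full receptor element, GNACA and TGTNC separated by 3 bases of any kind, was held by 0.327% of promoters, a single hexamer, AGAACA, which is part of many full elements, by 12.4%, the AP-1 motif TGANTCA by 6.57% and the C/EBP motif TTGCNNAA by 9.05%. None of these 4 motifs was found in the 250 bases before any of the 4 starts, which says only that these letters are not in those stretches. Sequence of the accessible regions themselves was not used here, as none was given in hg19.

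Peaks covered more of the stretch after dexamethasone. They covered 7299, 6926 and 6460 bp in dexamethasone replicates 1, 2 and 3, and 4738, 4629 and 5487 bp in ethanol replicates 1, 2 and 3. Every dexamethasone library lay above every ethanol library. The 3 regions that chose the stretch gave 1157, 1019 and 1155 bp of the dexamethasone totals and 0 bp of the ethanol ones. Without them the treatments overlapped, so nothing is read from this order. As shares of the 240 kb the covered bases were 2.87 ± 0.18% with dexamethasone and 2.06 ± 0.19% with ethanol (SD, n = 3 each). Inside the gene itself they covered 2805, 2155 and 2559 bp with dexamethasone and 1851, 1535 and 2122 bp with ethanol, or 4.01 ± 0.52% and 2.93 ± 0.47% of its length (SD, n = 3 each). There the lowest dexamethasone library exceeded the highest ethanol library by a small margin. Of the dexamethasone bases, 447, 299 and 539 bp lay in 1 of the 3 regions that chose the stretch. Without that region the treatments overlapped inside the gene as well. The number of peaks overlapped between treatments, at 17, 15 and 18 with dexamethasone and 15, 13 and 14 with ethanol. The whole lists were not longer with dexamethasone, at 58360 to 60646 peaks against 58281 to 61344. Of the mean difference of 1944 bp, the 3 regions called after dexamethasone alone made up 57.1%, a region called in 3 dexamethasone libraries and 1 ethanol library 21.7%, the 10 regions called in all 6 libraries 22.9%, and 4 sparsely called regions 10.9%. A region called in ethanol alone took away 12.6%.

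**Figure D1:**
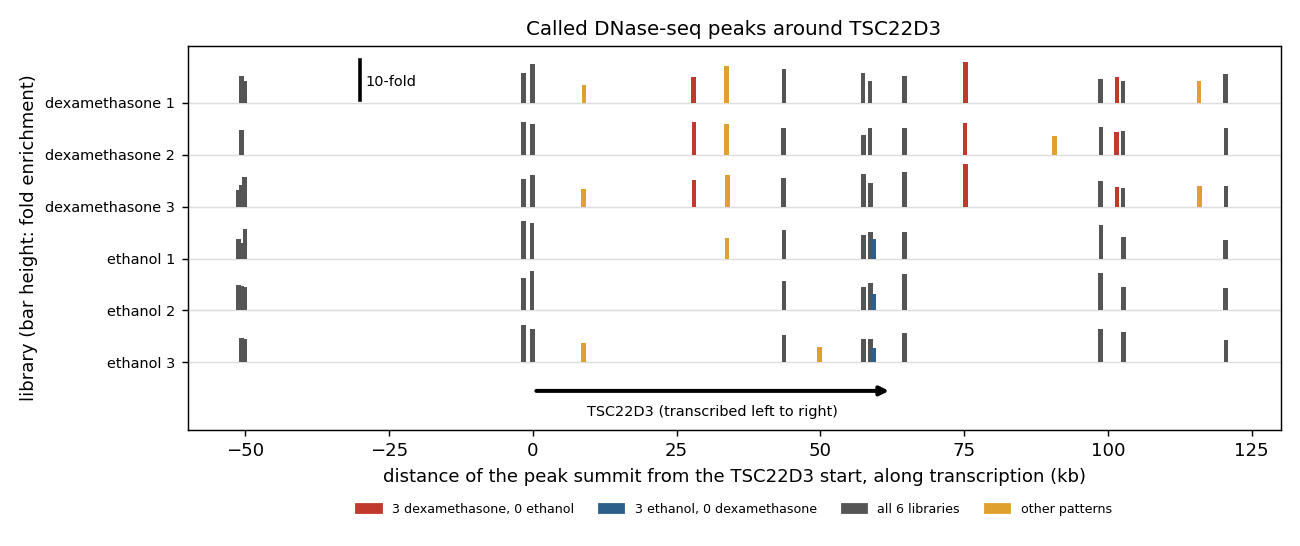
Called peaks in the 6 libraries around TSC22D3, with the summit's distance from the gene start in kb along the horizontal axis and 1 line per library. Bar height is the authors' fold enrichment (the scale bar is 10-fold) and bar width is not to scale. Red bars, the dexamethasone-only regions, stand inside the gene and beyond its end, and the blue bars of the ethanol-only region near the end of the gene; grey bars were called in all 6 libraries and orange bars in other combinations.

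Of the 19 regions, 8 lay past the 3′ end of the gene, 8 inside it, 1 over its start and 2 upstream. All 6 libraries had a peak in 10 of them, or 52.6%, against 49.2% of all merged regions in the genome. The gene start was covered in every library. The first region inside the limits of the stretch lay 18.3 kb from its lower edge (mean percentile 21.3, as defined next) and the last 49.6 kb from its upper edge (46.5). The nearest regions outside lay 7.59 kb below (12.2) and 17.3 kb above (33.7), called in 6 and in 4 libraries. In the order of genes in RefSeq, PRPS1 (phosphoribosyl pyrophosphate synthesis) is the neighbour past the 3′ end of TSC22D3, and NCBP2L and then MID2 (a microtubule-associated ubiquitin ligase) follow on the other side. Regions could not be assigned to these genes, or to exons and introns, without an hg19 annotation.

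The dexamethasone-only regions, those called in every dexamethasone library and no ethanol one, numbered 3, against 1.10% of all merged regions. This pattern chose the stretch, so nothing is read from the count. They spanned 74.1 kb, 1 inside the gene and 2 past its 3′ end, with regions called in all 6 libraries between them. The strength of a peak is given as the authors' fold enrichment over the local background of its own library and as the percentile of its −log10 q within its own list, where 100 is the strongest peak of that library.

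The strongest of the 3 lay past the end of the gene, 12.7 kb beyond it, at chrX:106943556-106943977. Its fold enrichment was 10.2, 7.91 and 10.8 in dexamethasone replicates 1, 2 and 3, at percentiles 61.1, 42.7 and 67.5. Dexamethasone replicate 2 was the lowest by both measures. The mean fold was 9.63 ± 1.52 (SD, n = 3) and the mean percentile 57.1, which ranked 44 of 897 dexamethasone-only regions of the genome, whose median percentile was 24.7. It was also the most isolated of the 3, with no ethanol peak within 10.2 kb. Its summits fell within 96 bp of each other, and its peaks were 396, 416 and 372 bp long.

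The farthest region, at chrX:106917278-106917637, lay 39.0 kb past the end of the gene and 101.6 kb from its start. Its fold was 6.55, 5.78 and 5.02 in dexamethasone replicates 1 to 3, at percentiles 62.7, 48.0 and 29.5. The mean fold was 5.78 ± 0.76 (SD, n = 3), and the mean percentile, 46.7, ranked 118 of 897. Replicate 1 was the highest and replicate 3 the lowest, while the summits agreed within 33 bp. The peaks were 314, 304 and 244 bp long, the shortest of the 3 regions on average. This region stood between neighbours that were called in all 6 libraries: one began to its lower side with a gap of 739 bp, and the nearest ethanol peak was 758 bp away. The other neighbour lay at chrX:106919980-106920552.

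Inside the gene, 27.9 kb from its start, the remaining one lay at chrX:106990794-106991365. Its fold was 6.41, 8.20 and 6.72 in dexamethasone replicates 1 to 3, at percentiles 31.0, 47.5 and 44.1. The mean fold was 7.11 ± 0.96 (SD, n = 3), and its mean percentile, 40.8, ranked 177 of 897. Here replicate 2 was the highest in fold, so no library was the strongest at all 3 regions. The peaks were 447, 299 and 539 bp long, and replicate 2 had the shortest. The nearest ethanol peak was 5440 bp away.

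That ethanol peak belonged to the next region along the gene, at chrX:106984928-106985513, 33.8 kb from the start. It was singled out after its values were seen. It was called in 3 dexamethasone libraries and 1 ethanol library, as were 1.23% of all merged regions. Its fold was 9.25, 7.65 and 8.05 in dexamethasone replicates 1 to 3, at percentiles 67.2, 52.9 and 61.3. In ethanol replicate 1 the fold was 5.20 at percentile 14.5, and ethanol replicates 2 and 3 had no called peak. The peak spanned 578, 537 and 434 bp with dexamethasone and 282 bp in ethanol replicate 1. Every dexamethasone peak was thus stronger within its list and longer than the single ethanol peak. Its mean percentile with dexamethasone, 60.5, exceeded that of each of the 3 dexamethasone-only regions. Where a list lacks a peak, the site may still have been open below the caller's threshold, and read depth is unknown.

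**Figure D2:**
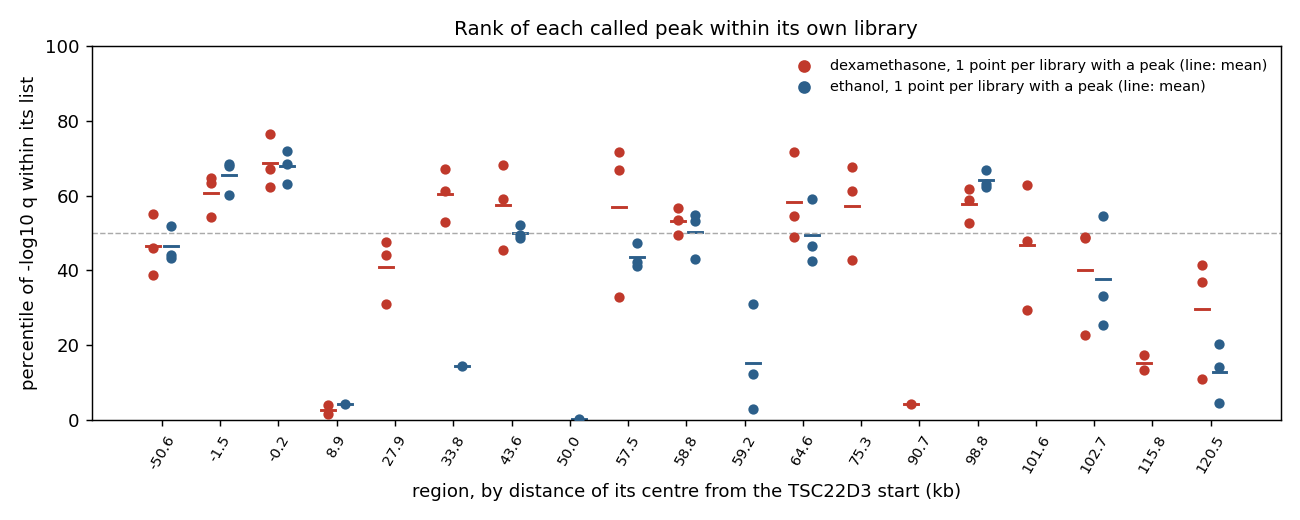
Percentile of each called peak within its own list (vertical axis, 100 the strongest) for the 19 regions, ordered along the horizontal axis by distance of their centre from the gene start in kb. A point is 1 library with a peak, short lines are means, and the dashed line marks the middle of a list. The dexamethasone-only regions stand at 27.9, 75.3 and 101.6 kb, without blue points.

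A single region behaved the other way round. At chrX:106959643-106959971, 3.36 kb inside the 3′ end of the gene, all 3 ethanol libraries and no dexamethasone library had a peak, a pattern seen in 0.662% of all merged regions. The fold was 4.93, 4.13 and 3.57 in ethanol replicates 1, 2 and 3, at percentiles 30.9, 12.2 and 2.85. The mean fold was 4.21 ± 0.68 (SD, n = 3). These were weak peaks: the region ranked 379 of 538 ethanol-only regions by mean percentile, 15.3. The nearest dexamethasone peak was 145 bp away. The call was lost when lists were shortened to one length, since the peak of ethanol replicate 3 ranked 59597 in its list against a shortest list of 58281, and under merging over gaps of up to 100 bp, since it then joined its neighbour.

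That neighbour, at chrX:106960016-106960509, was called in all 6 libraries. Its fold was 5.39, 6.67 and 6.01 in dexamethasone replicates 1 to 3 and 6.63, 6.79 and 5.83 in ethanol replicates 1 to 3. These folds overlapped between treatments. The peaks differed in position. They began at 106960131, 106960117 and 106960151 with dexamethasone and at 106960113, 106960050 and 106960016 with ethanol, so that every ethanol peak reached further towards the ethanol-only region and the 3′ end. The means differed by 73.3 bp. Summits lay at 106960361, 106960366 and 106960329 with dexamethasone and at 106960302, 106960313 and 106960299 with ethanol, without overlap and with a mean difference of 47.3 bp.

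In the GRCh38.p14 table the internal starts lay 58926 and 59480 bases from the outermost start, and 58725 and 59279 bases from the second one. In hg19 the region called in all 6 libraries spanned 58508 to 59001 bases and the ethanol-only region 59046 to 59374 bases from the gene start. Positions were not carried from one build to the other, so no peak is assigned to a start.

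Another region close by, at chrX:106961354-106961752, was also called in all 6 libraries. Its fold was 7.42, 5.04 and 8.19 in dexamethasone replicates 1 to 3 and 6.03, 5.85 and 5.78 in ethanol replicates 1 to 3. The treatments overlapped, with dexamethasone replicate 2 the lowest of all 6 and replicates 1 and 3 the highest. The peak was longer with dexamethasone in every library, at 359, 295 and 350 bp against 228, 212 and 271 bp. The added length was on the side of the gene start, where peaks ended at 106961752, 106961724 and 106961725 with dexamethasone and at 106961617, 106961621 and 106961624 with ethanol, a mean difference of 113 bp. Summits moved to the same side by 63.3 bp on average, at 106961592, 106961557 and 106961544 against 106961493, 106961510 and 106961500.

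**Figure D3:**
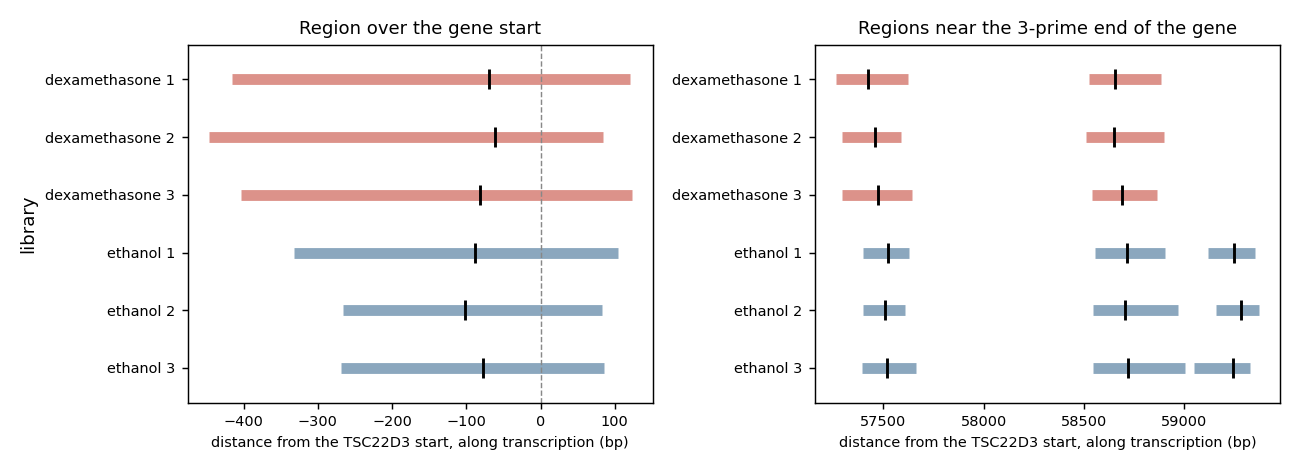
Extent of each called peak (coloured bar) and its summit (black mark) by library, with distance from the TSC22D3 start in bp along transcription on the horizontal axis; red is dexamethasone and blue ethanol. Over the gene start (left, dashed line at 0) the dexamethasone peaks reach further upstream, and near the 3′ end (right) the ethanol libraries alone have the last peak, whose folds were 4.93, 4.13 and 3.57.

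The region over the gene start, at chrX:107018894-107019464, had the highest mean percentile of the stretch, 68.2 over the 6 libraries. Its fold was 9.73, 7.74 and 8.07 in dexamethasone replicates 1 to 3 and 9.03, 9.97 and 8.42 in ethanol replicates 1 to 3. The means, 8.51 ± 1.07 and 9.14 ± 0.78 (SD, n = 3 each), differed by less than the spread of either treatment. Summits fell 61 to 102 bp upstream of the gene start as given above in all 6 libraries. Which of the RefSeq starts that position stands for was not settled, and the outer pair lay 201 bases apart, so the summits may lie inside the outermost start. The peak was nevertheless longer with dexamethasone, at 537, 532 and 528 bp against 437, 350 and 355 bp. Its upstream edge lay at 107019433, 107019464 and 107019421 with dexamethasone and at 107019349, 107019283 and 107019286 with ethanol, a mean difference of 133 bp, while the edges inside the gene overlapped between treatments.

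A further region upstream, at chrX:107020253-107020803, 1.51 kb from the start, was next in mean percentile. Its fold was 7.63, 8.20 and 6.88 in dexamethasone replicates 1 to 3 and 9.31, 8.16 and 9.40 in ethanol replicates 1 to 3. Dexamethasone replicate 2 lay above the lowest ethanol library, so the treatments overlapped. Its mean percentile was 63.1. The remaining region upstream, at chrX:107068917-107070399, was the longest at 1483 bp and lay 50.6 kb before the start. It was 1 peak in dexamethasone replicate 2 and 2 to 4 separate peaks in the other libraries. The peaks covered 1113 ± 207 bp with dexamethasone and 1081 ± 142 bp with ethanol (SD, n = 3 each), a difference smaller than the spread of either.

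Within the gene, 43.6 kb from the start, the region at chrX:106975045-106975779 had folds of 8.48, 6.69 and 7.17 in dexamethasone replicates 1 to 3 and of 7.26, 7.27 and 6.95 in ethanol replicates 1 to 3. The ethanol values fell inside the range of the dexamethasone values. Just past the gene, 2.09 kb from its 3′ end, the region at chrX:106954126-106954609 had folds of 6.76, 6.77 and 8.79 with dexamethasone and of 6.72, 9.13 and 7.33 with ethanol, again overlapping. Further out, 36.2 kb past the end, the region at chrX:106919980-106920552 had folds of 5.96, 6.95 and 6.42 with dexamethasone and of 8.36, 9.40 and 8.25 with ethanol. It was the one region of the 10 where folds did not overlap, and the ethanol libraries were the higher ones. Over all regions called in 6 libraries, 5.59% had every ethanol fold above every dexamethasone fold and 5.73% the reverse, which no region of the stretch showed. Each fold is relative to its own library, so these orders describe peaks within lists.

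The extent of the peaks is summarised over the 10 regions called in all 6 libraries. Covered bases were higher in every dexamethasone library than in every ethanol library at 2 of them, the gene start and the region at 57.5 kb, and at none the other way round. Over all such regions of the genome the shares were 5.25% and 6.17%. The upper end of the peaks, on the upstream side of TSC22D3, lay further out in every dexamethasone library at 4 of 10 regions (5.08% of the genome's regions) and in every ethanol library at 1 (5.69%). The lower end lay further out in every dexamethasone library at 1 of 10 (4.96%) and in every ethanol library at 1 of 10 (5.70%). Summits of all dexamethasone libraries lay upstream of those of all ethanol libraries, at higher positions, at 3 of 10 (5.04%), by 47.3, 63.3 and 66.3 bp on average, and the reverse held at 0 of 10 (4.99%). The last of these, at chrX:106916159-106916538, was singled out after its values were seen, and is the region beside the farthest dexamethasone-only one. Its summits lay at 106916388, 106916394 and 106916407 with dexamethasone and at 106916324, 106916322 and 106916344 with ethanol, and its folds overlapped. These measures come from the contrast that chose the stretch, so nothing is read from their shares.

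**Figure D4:**
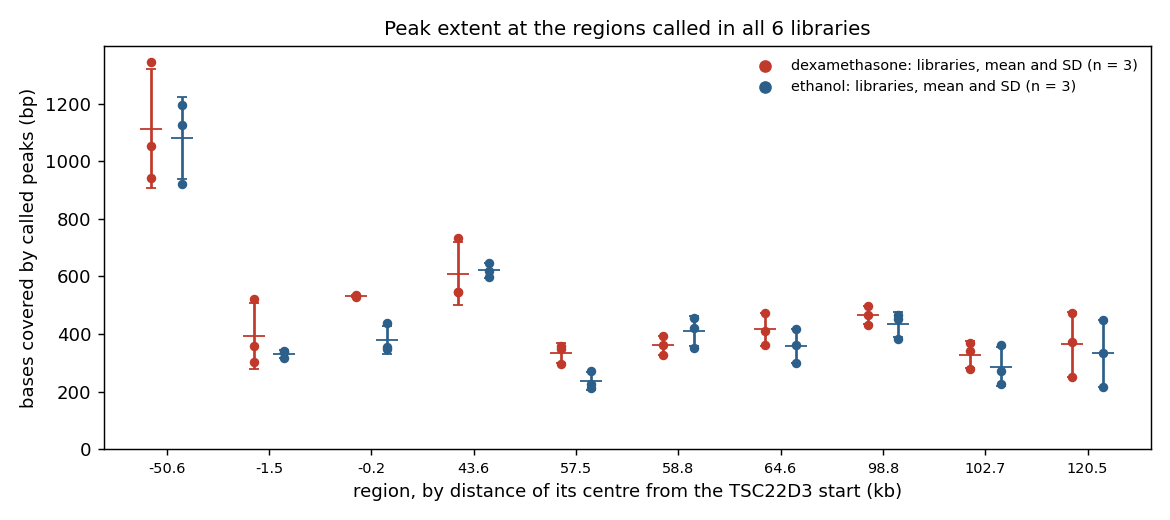
Bases covered by called peaks (vertical axis) at the 10 regions called in all 6 libraries, ordered by distance of their centre from the gene start in kb; points are libraries, with mean and SD (n = 3) per treatment. At -0.2 kb, the gene start, the dexamethasone libraries sit at 528 to 537 bp and the ethanol libraries at 350 to 437 bp, and at 57.5 kb at 295 to 359 and 212 to 271 bp.

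The 10 regions also differed in strength among themselves, from a mean percentile of 68.2 at the gene start to 21.3 at chrX:106898262-106898834, the farthest past the 3′ end. The median of the genome's regions called in all 6 libraries was 64.3, and the gene start alone of the 10 lay above it. The other 4 regions, called in 1 to 3 libraries, were short and weak, 200 to 256 bp long at mean percentiles of 0.37 to 15.3. They were called in 2 dexamethasone libraries, in 1 dexamethasone library, in 1 ethanol library, and in 2 dexamethasone libraries with 1 ethanol library.

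The stretch was set beside windows of the same length laid end to end over the genome. On chromosome X they were laid outwards from the stretch itself, and on other chromosomes from position 1. The stretch thus keeps its 3 regions together, while a border may divide such regions elsewhere. It was also chosen for these regions, so nothing is read from its place among the windows. In all, 9567 windows held at least 1 region and 784 at least 1 dexamethasone-only region. The TSC22D3 window and 13 others held 3 or more. The TSC22D3 window held 19 regions in all, where the median window held 7. On chromosome X, 22 of 398 windows held a dexamethasone-only region, and the TSC22D3 window was the single one with 3. The nearest dexamethasone-only region outside it was 431 kb away. The highest count was 5, on chromosome 10 at 99360415 to 99600415. Of the windows with 3, the first in genome order was 123600516 to 123840516 of chromosome 4. The next 3 were 148800621 to 149040621, 159120664 to 159360664 and 172080718 to 172320718, all of chromosome 5. An ethanol-only region was present as well in 4 of the 14 windows, among them the TSC22D3 window and the one on chromosome 4. Of all 784 windows with a dexamethasone-only region, 70 also held an ethanol-only one. Windows with more regions have more places for a changed one, and the counts were not adjusted for that.

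**Figure D5:**
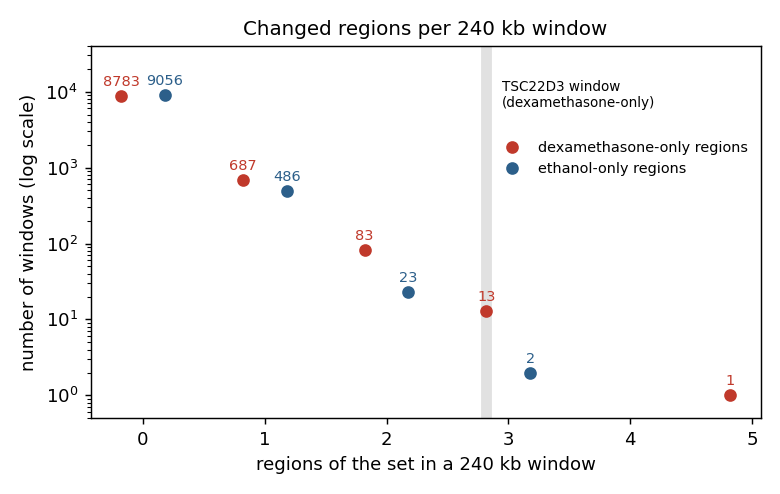
Number of 240 kb windows of the genome (vertical axis, log scale) by how many dexamethasone-only (red) or ethanol-only (blue) regions they hold (horizontal axis). The grey line marks the TSC22D3 window, 1 of 13 windows with exactly 3 dexamethasone-only regions, the pattern for which it was chosen. For ethanol-only regions 2 windows had 3.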

How the data were processed

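DNase-seq of A549 cells gave 1 list of called peaks for each of 6 libraries, 3 per treatment, in hg19. MACS2 2.1.0, Bowtie, CASAVA 1.3 and bedtools are listed in the submitters' processing notes, with no settings. Peaks are numbered within each list, so they were called per library. Fold enrichment (a deposited ratio) refers to the summit, and the deposited p-value and q-value are −log10 values (lowest −log10 q per list 2.51 to 2.71). The deposited score followed 10 times the −log10 q and was not used. An offset gives the summit. No list holds read counts, which leaves depth unknown and allows no counting interval. A stricter or looser threshold in one library adds or removes calls, and each fold and percentile belongs to its own list.

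Peaks sharing at least 1 bp were merged across lists (Python 3.11.15, pandas 2.3.3), and the merging was tested on simulated data. The simulated regions lay far apart, with at most 1 peak per library, and the peaks of a region always overlapped. Close neighbours and regions of several peaks were thus not covered by that test. A library called a region if it had a peak there. With 3 libraries against 3 a single region cannot reach an exact p below 0.1, and the stretch was chosen on these calls, so no test was made. Background shares are over all merged regions or all regions called in 6 libraries. No pair of lists shared an identical peak with the same fold. By rule, the regions called in all 3 libraries of one treatment and none of the other were described singly, as were the 8 regions called in all 6 libraries with the highest mean percentile. A region called in 3 dexamethasone libraries and 1 ethanol library, and the summits of a further region called in all 6, were added after their values were seen. The members, lists and comparisons were chosen with earlier results of these data known. A planned count around other glucocorticoid target genes needs hg19 gene positions and was not made. Positions count from 1. RefSeq sequences and gene order are of GRCh38.p14, matched by symbol, and no position was carried between builds.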

Additional observations from a re-analysis of the deposited data

How the results depend on the processing

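The stretch was examined again with a −log10 q of at least 5, with lists of one length, with peaks merged across gaps of 100 bp, with summits within 100 bp joined, with at least 50% of a region covered, and without each library in turn. The 3 dexamethasone-only regions were called in dexamethasone alone in each of these. Without 1 library this follows from their definition. Most other settings could not change it either. Their peaks had a −log10 q of at least 11.4, ranked no lower than 41390 in their lists and lay at least 758 bp from any ethanol peak. The summits of each region fell within 96 bp. Only the 50% cover was open, where the peak of dexamethasone replicate 2 inside the gene, 299 of 572 bp, came nearest to failing. The number of dexamethasone-only regions was 3 to 4 without 1 library, 4 without dexamethasone replicate 2 or ethanol replicate 1. It was 4 when 50% of a region had to be covered. The added region was chrX:106984928-106985513, where the peak of ethanol replicate 1, 282 of 586 bp, then no longer counted. Leaving out 1 library loosens the pattern. Over the genome, dexamethasone-only regions then rose from 897 to between 1205 and 1716, and ethanol-only regions from 538 to between 926 and 1460. Regions called in every library numbered 9 to 11, and merged regions 18 to 21. The ethanol-only count fell from 1 to 0 with lists of one length and with gaps of 100 bp merged, and was 1 in the other settings. The covered share ranged from 2.79 to 2.96% (dexamethasone) and from 1.95 to 2.13% (ethanol) without 1 library.

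Equal replicate numbers were not taken as pairs. Over 41282 regions called in 1 to 5 libraries, deviations from the treatment means correlated at 0.10, 0.047 and 0.088 for numbers 1, 2 and 3, and each library correlated best with its own number, which is a hint from the data and not from the design. A replicate block asked for at least 2 of 3 numbered pairs in one direction and none in the other. With it, 5 of the 19 regions of the stretch were gained and 1 lost, against 3629 and 3902 of 81216 in the genome. The 3 dexamethasone-only regions are gained, and the ethanol-only region lost, by definition. The stretch was chosen on these calls, so nothing is read from the counts. The 2 further gained regions were the one called in 3 dexamethasone libraries and 1 ethanol library and one called in 2 dexamethasone libraries.

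Depth is unknown, so a weak site missing from a list cannot be told from one that was sequenced less. The ethanol-only region and the 4 sparsely called regions lie where this matters most.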
